A study of Mus musculus with 5 samples.

Results

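The P2 purinergic receptors P2ry1, P2ry2, P2ry6, P2ry12, P2ry13, P2ry14, P2rx1, P2rx4 and P2rx7 were examined in a list of chromatin sites of the transcription factor PU.1. These 9 genes are a choice from 21631 protein-coding genes of the autosomes and chromosome X. Every summit (the position of a site's highest signal) inside a gene or within 50 kb of either of its ends was taken, and a summit in reach of several genes was counted once. This gave 17 of the 11111 listed summits. The genes were selected on the positions and scores of these same sites, which are therefore given as a description with no test.

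Chromatin immunoprecipitation with sequencing was carried out with the PU.1 antibody T-21 on AML-246, a mouse acute myeloid leukaemia without p53 that carries a hairpin RNA against PU.1 (shPU.1, linked to GFP). PU.1 high cells came from leukaemic mice treated with doxycycline (Dox) for 2 days, which shuts the hairpin down and lets endogenous PU.1 return (3 libraries). PU.1 low cells came from untreated leukaemic mice with the hairpin active (2 libraries). Both groups lack p53, carry the hairpin, and are spleen cells of leukaemic C57BL/6 recipients. The labels name a single leukaemia and call the libraries technical replicates, and they give neither the age of the mice nor a sort that would remove cells of the host. The list holds no expression values, so that neither the cell type nor the return of Spi1, the gene of PU.1, could be checked here.

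The deposited data are 1 list that sets PU.1 high against PU.1 low, read here as sites where PU.1 binding was higher after restoration. Each site has a score on a −log10 scale from the authors' peak caller, which measures how surely the site stands out and is not a fold change. Libraries have no values of their own in the list, so that the spread between them and the read depth are unknown. Scores ran from 1.32 to 43.3 with a median of 8.56 and quartiles of 5.78 and 11.9. The 95% Wilson intervals below cover counting error only, and neighbouring sites and genes are not independent. Positions are 1-based on mm10, and genes and their starts come from RefSeq for GRCm38.p6, which shares its chromosome coordinates. A site is tied to a gene by distance alone.

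P2 receptors sense nucleotides that cells release when they are damaged, stressed or activated. The P2Y receptors couple to G proteins and the P2X receptors are ion channels that ATP opens. In myeloid cells they are known for guiding migration toward dying cells, for phagocytosis and for the release of interleukin-1. PU.1 is an ETS factor that myeloid cells need to develop, and it binds purine-rich DNA around the letters GGAA.

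Sites inside the annotated start region of a receptor gene were found at P2ry13 and P2rx7, and their sequences are shown because they place the summit on the DNA. The window used runs from 250 bases before to 50 bases after the first base of a transcript. Of the 8 members with a listed start, 2 had a summit in such a window, against 3.03% of 17244 protein-coding genes with a listed start. P2ry6 has no entry among these windows. The first sequence gives the 250 bases before the start of P2ry13, on the minus strand at chr3:59210883-59211132, with the PU.1 core GAGGAAG in capitals. The second gives 30 bases from within the start window of P2rx7, all of them past the first base of the transcript at 122643927, on the plus strand at chr5:122643937-122643966, with GGAA and its reverse complement TTCC in capitals.
P2ry13: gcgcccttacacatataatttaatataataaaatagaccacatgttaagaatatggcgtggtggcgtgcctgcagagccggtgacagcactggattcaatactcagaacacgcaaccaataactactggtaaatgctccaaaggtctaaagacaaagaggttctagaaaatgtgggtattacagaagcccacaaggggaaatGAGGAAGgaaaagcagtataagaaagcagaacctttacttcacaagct
P2rx7: gaGGAActGGAAgttaaccgTTCCtgctga

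In the P2ry13 sequence the core occupies bases 203 to 209 and the summit (score 14.2) lies at base 216. The summit is thus 10 bases from the centre of the core and 35 bases before the first base of the transcript. In the P2rx7 sequence the GGAA letters stand at bases 3 to 6 and 9 to 12, and TTCC stands at bases 21 to 24. The P2rx7 summit (score 5.78) falls on base 24, which is 33 bases past the first base of the transcript. The longer core GAGGAAG is not in that P2rx7 window, which says only that these letters are not there.

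The letters were also counted in all start windows, on both strands. GAGGAAG stood in 210 of the 660 windows that held a summit (31.8%, 95% interval 28.4 to 35.5) and in 4369 of all 32585 windows (13.4%). Windows of alternative starts can overlap, so these are not independent. In the windows with both a summit and the core, the summit lay a median of 13 bases from the core's centre, and 129 of 210 (61.4%) lay within 20 bases, as at P2ry13. The short core GGAA was in 96.0% of all windows, so that its presence at P2rx7 is the common case. Among the members, GAGGAAG was further found in a start window of P2ry14 and in the window of a second P2rx7 start, neither of which held a summit. The windows of P2ry1, P2ry2, P2ry12, P2rx1 and P2rx4 did not hold it. The AP-1 letters TGANTCA were in 6.52% of windows with a summit and 7.85% of all windows, and the RUNX letters TGTGGTT in 6.21% and 5.29%. TGANTCA occurred in start windows of P2ry14 and P2rx7, and TGTGGTT in none of the members' windows. A match is a run of letters and not a measured contact.

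All 9 members had at least 1 site within 50 kb, where 50.3% of protein-coding genes had one. Genes between the shortest and the longest member (2.99 to 48.4 kb) had a site in 52.6% of cases. Within 10 kb, 7 members had a site, against 27.8% of protein-coding genes, and 6 had a site inside the gene, against 16.6%. A site scoring at least 10 lay near 4 members, P2ry12, P2ry13, P2ry1 and P2rx1, against 26.9% of protein-coding genes. Since the members were picked with these sites in view, nothing is read from the difference.

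The 17 sites scored from 3.28 to 18.5 with a median of 9.62, against 8.56 for all sites. Of the 17, 8 scored at least 10 (47.1%, 95% interval 26.2 to 69.0), against 37.4% of the list. Nothing is read from this difference either. The scores differed by locus. The 8 sites around P2ry12, P2ry13 and P2ry14 scored from 6.22 to 18.5 with a median of 12.86, and the 9 sites at the other members from 3.28 to 13.4 with a median of 5.97. The ranges of both groups of sites overlap.

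**Figure D1:**
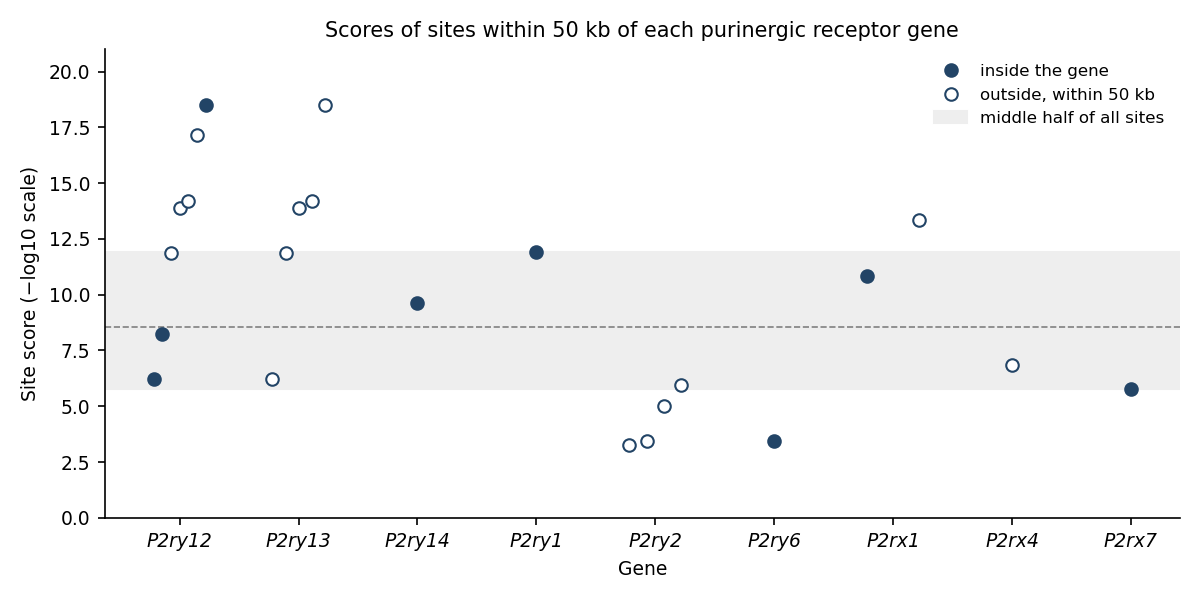
Score of each site (vertical axis, −log10 scale) within 50 kb of each receptor gene (horizontal axis), with filled points inside the gene and open points outside. Grey shading spans the quartiles of all listed sites (5.78 to 11.9) and the dashed line is their median (8.56). A site in reach of 2 genes is drawn at both. P2ry12 and P2ry13 hold the highest point (18.5), and all points of P2ry2, P2ry6, P2rx4 and P2rx7 lie below the median.

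P2ry12 (chromosome 3, 59216271 to 59262985, minus strand) encodes a Gi-coupled ADP receptor of platelets and microglia, the target of the clopidogrel class of drugs. It had 7 sites within 50 kb, more than any other member, and 0.869% of protein-coding genes had at least as many. This share is over genes of all lengths. Nothing is read from it or from the like shares for P2ry13 and P2ry2 below. All 7 lay inside the gene or within 10 kb of it. The sites at 59206533, 59210917 and 59212545 lay 50.4 to 56.5 kb downstream of the start and nearer to P2ry13. The site nearest the start, at 59264240, lay 1255 bases upstream of it and scored 17.2, above 92.7% of all listed sites. The gene itself held 3 sites. The first, at 59260935, lay 2.05 kb downstream of the start with a score of 8.22. The next, at 59228910 and 34.1 kb downstream, had the highest score of all members, 18.5, above 94.6% of the list. The third, at 59225612, scored 6.22. Scores inside the gene therefore covered the whole range of the locus, with the lowest and the highest site 3.30 kb apart.

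P2ry13 (chromosome 3, 59207892 to 59210882, minus strand) encodes another ADP receptor coupled to Gi and is the shortest of the 9 genes. It lies 5.39 kb from P2ry12, and its 5 sites within 50 kb are all shared with that gene. At least as many were found at 3.61% of protein-coding genes. None of the 5 lay inside P2ry13. Around it stood 3 sites close together. The site at 59210917 (14.2) lay in the start window shown above. The site at 59212545 (11.9) lay 1.66 kb upstream of the start, and the site at 59206533 (13.9) lay 1.36 kb beyond the other end of the gene. These 3 scores were all above the list's median, and at least 74.6% of listed sites scored lower than each of them.

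P2ry14 (chromosome 3, 59114623 to 59153492, minus strand), a Gi-coupled receptor for UDP-glucose and related UDP-sugars, had 1 site. It lay inside the gene at 59132182 with a score of 9.62, above 59.3% of the list. RefSeq lists 4 starts for this gene. The site was 21.3 kb downstream of the outermost start and 0.854 kb upstream of the next, an internal start. No site lay in the start window of the outermost start.

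Of the 8 sites at this locus, the 7 around P2ry13 and P2ry12 spanned 57.7 kb, and the P2ry14 site stood 74.4 kb from the nearest of them. Within the group of 7, gaps ran from 1.63 to 32.0 kb. Of the summits on chromosomes 1 to 19 and X, 35 (0.315%) opened a stretch of 57.7 kb with at least 7 summits, and the median number was 2. That length and number were set by the 7 sites themselves, which therefore meet them by construction. Nothing is read from the share. All 8 sites also lie inside Med12l (chromosome 3, 59005419 to 59318446), a gene of a Mediator subunit that spans the whole receptor cluster, and they are all the sites that Med12l holds. The list cannot assign them to Med12l or to the receptors.

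**Figure D2:**
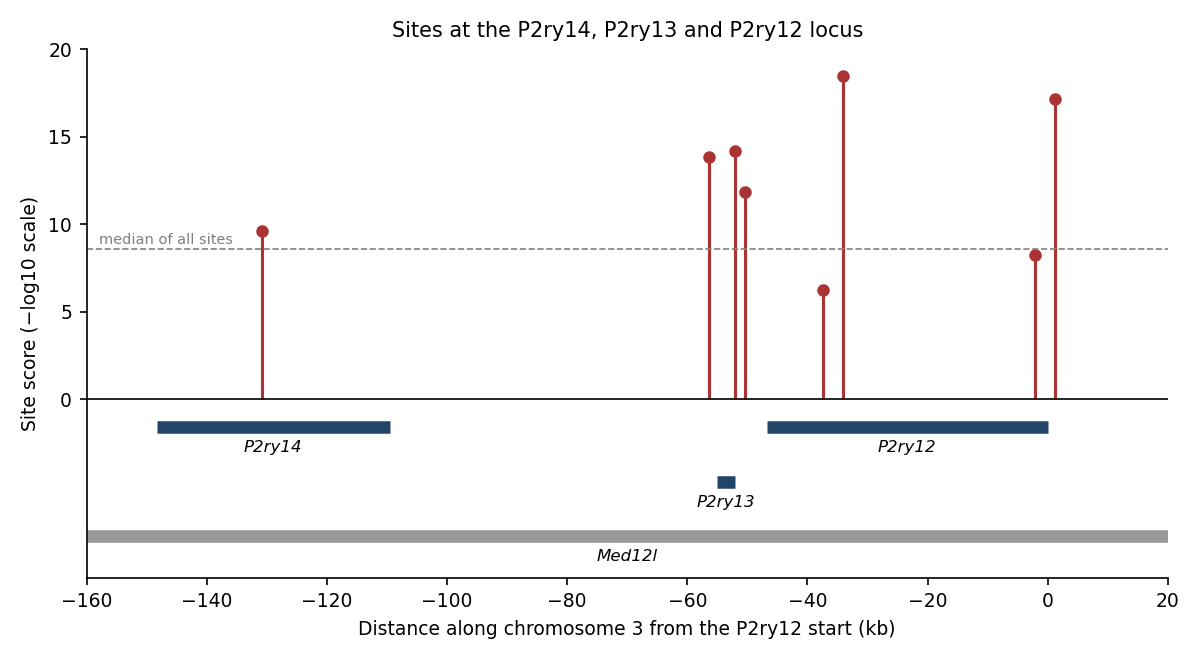
Sites at the P2ry14, P2ry13 and P2ry12 locus. The horizontal axis is the distance in kb along chromosome 3 from the P2ry12 start, stems give each site's score on a −log10 scale, the dashed line is the median of all listed sites (8.56), and bars below are gene spans, with the receptors studied in blue. The group of 7 sites extends from P2ry13 to just past the P2ry12 start, and 1 site of 9.62 stands apart in P2ry14.

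P2ry1 (chromosome 3, 61002785 to 61008982, plus strand) encodes the Gq-coupled ADP receptor that starts platelet shape change. Its single site within 50 kb lay inside the gene at 61004784, 2.00 kb downstream of the start. The score of 11.9 was above 74.6% of the list. No other protein-coding gene lay as near to it, and the next listed site was 65.0 kb beyond an end of the gene.

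P2ry2 and P2ry6 are neighbours on chromosome 7 with 21.1 kb between them and no site in that interval. P2ry2 (100996568 to 101012053, minus strand) encodes a Gq-coupled receptor for ATP and UTP that phagocytes use to find dying cells. It had 4 sites within 50 kb, a number reached by 7.10% of protein-coding genes, but none inside or within 10 kb. Upstream of its start, the site at 15.7 kb scored 3.28, the site at 38.9 kb scored 4.99 and the site at 48.7 kb scored 5.97. The last of these was nearer to Fchsd2 (47.8 kb), a gene of a membrane-trafficking protein. All 4 scores were low in the list, where 27.4% of sites scored below the highest of them.

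The other P2ry2 site, at 100950719, lies inside P2ry6 (100937630 to 100975498), which encodes a Gq-coupled UDP receptor known for microglial phagocytosis. Its score of 3.46 was above 6.27% of the list. It was the only site within 50 kb of P2ry6 and lay 13.1 kb and 24.8 kb from the ends of the gene. P2ry2 therefore had more sites than any member outside the chromosome 3 cluster, and P2ry2 and P2ry6 had none above the lower quartile of the list except the 5.97 site.

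Each of the ion channel genes had 1 or 2 sites. P2rx1 (chromosome 11, 72999056 to 73015200, plus strand), the rapidly desensitising ATP channel of platelets and smooth muscle, had 2. The site inside the gene, at 73004842, lay 5.70 kb downstream of the start and scored 10.8, above 67.5% of the list. The site at 72954037 scored 13.4 and lay 45.0 kb beyond the lower end of P2rx1. It was 7.13 kb upstream of Atp2a3, a gene of an endoplasmic calcium pump, and 26.9 kb from Zzef1, both nearer to it than P2rx1.

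P2rx7 and P2rx4 are neighbours on chromosome 5, 15.2 kb apart with no site between them. P2rx7 (122643927 to 122692336, plus strand) encodes the channel that opens at high ATP and triggers inflammasome activation. Its single site, at 122643960, is the 1 at the transcript start shown above. Its score of 5.78 was above 24.9% of the list, far below the 14.2 at the P2ry13 start. The second listed P2rx7 start lay 6.42 kb downstream of the site.

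P2rx4 (122707518 to 122729739, plus strand) encodes an ATP channel found largely in lysosomes of macrophages. Its only site, at 122779687 with a score of 6.85, lay 49.9 kb beyond the upper end, just inside the 50 kb limit. This site stood 277 bases upstream of the start of Camkk2, a calcium-dependent kinase gene that overlaps P2rx4, and 7.77 kb from Anapc5, a gene of the anaphase-promoting complex. P2rx4 had no site within 10 kb. Just outside the limit was a site of 8.22 at 50.1 kb from P2ry13, which is counted for P2ry12.

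**Figure D3:**
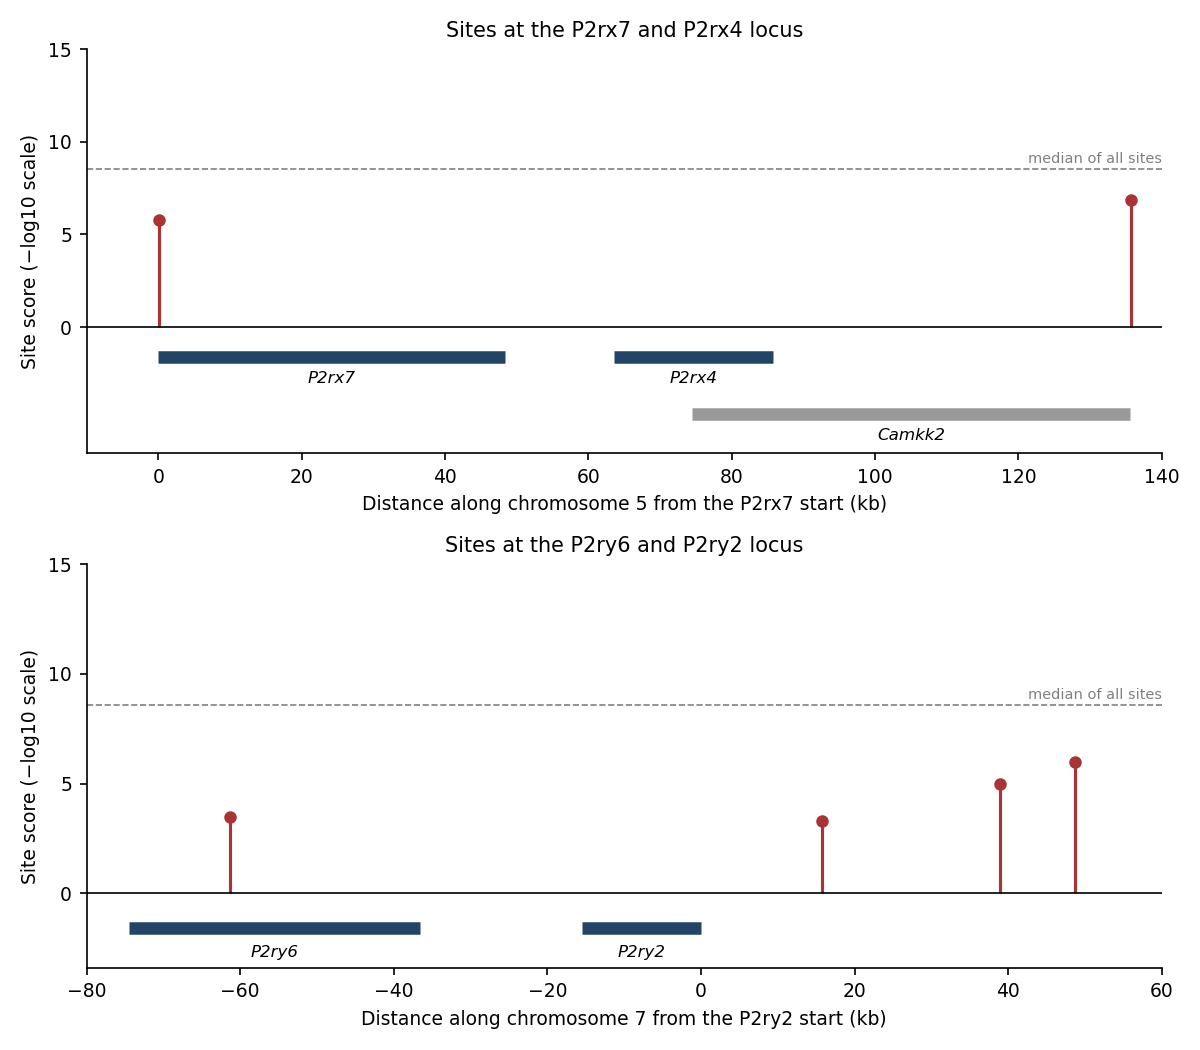
Sites at the P2rx7 and P2rx4 locus (top) and the P2ry6 and P2ry2 locus (bottom). Horizontal axes give the distance in kb along the chromosome from the P2rx7 or the P2ry2 start, stems give scores on a −log10 scale, the dashed line is the median of all listed sites (8.56), and bars are gene spans. All 6 sites lie below the median, from 3.28 to 6.85, and the site counted for P2rx4 stands just past the Camkk2 bar.

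Among the 17 sites, only those at the P2ry13 and P2rx7 starts lay in a listed start window of a member. Such a window held a summit at 2 of 8 members and at 3.03% of protein-coding genes with a listed start. Of the 17, 8 lay inside a member (47.1%, 95% interval 26.2 to 69.0) and 12 inside any protein-coding gene (70.6%, 46.9 to 86.7), Med12l included. Of the 9631 listed sites within 50 kb of a protein-coding gene, 5779 lay inside one (59.0 to 61.0%). By number of sites, 5 of the 9 members (P2ry1, P2ry6, P2ry14, P2rx4 and P2rx7) had exactly 1 site within 50 kb. Among all 21631 protein-coding genes, 5061 had exactly 1, and nothing is read from the difference.

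**Figure D4:**
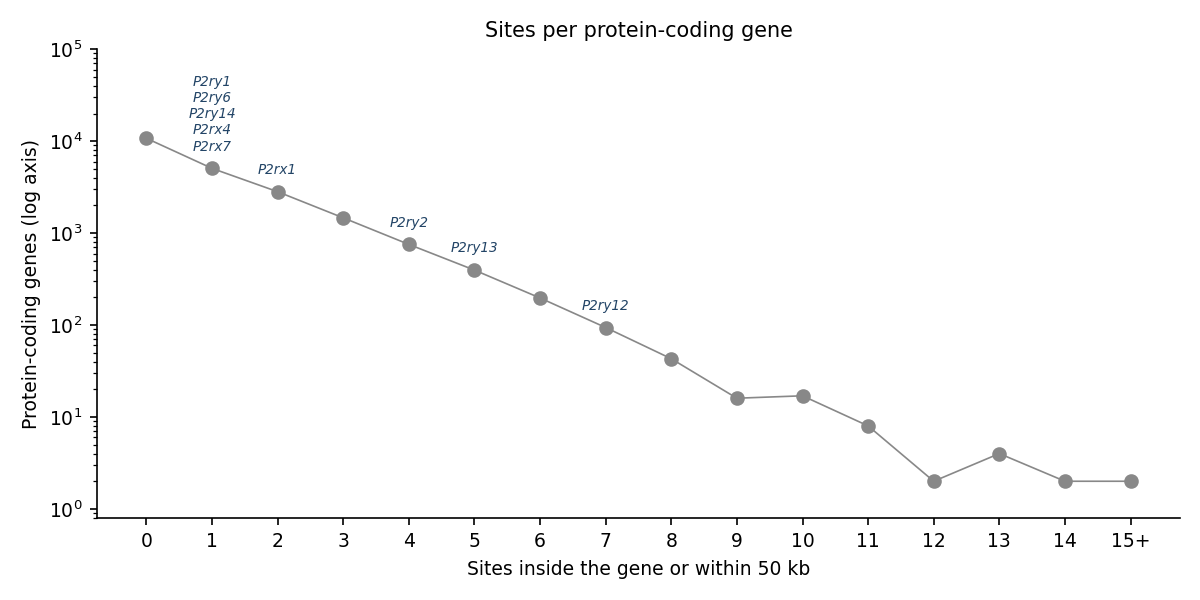
Number of protein-coding genes (vertical axis, log scale) by the number of sites inside them or within 50 kb (horizontal axis, 15 and more together). Receptor genes are named above the point of their own count. P2ry12 with 7 sites and P2ry13 with 5, all of these shared with P2ry12, lie where 0.869% and 3.61% of genes had at least as many. Nothing is read from these shares, since the receptors were picked with these sites in view. Exactly 1 site was found at 5 receptor genes and at 5061 of the 21631 protein-coding genes.

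Apart from P2ry12 and its neighbours, 93 protein-coding genes also had 7 sites within 50 kb. Among these, the 5 whose highest score came closest to the 18.5 of P2ry12 were Cdk6, Chd7, Il1r1, Rubcnl and Atp5d. Cdk6, a cell cycle kinase gene, had a highest score of 18.5 and 6 sites inside. Chd7, a chromatin remodeller gene, had 18.5 and 4 inside. Il1r1, the interleukin-1 receptor gene, had 18.5 and 3 inside. Rubcnl, an autophagy gene, had 18.5 and 4 inside, and Atp5d, an ATP synthase subunit gene, had 18.0 and 0 inside. The likeness rests on a count and a score from 1 list, and gene lengths were not matched. Cdk6 spans 3341004 to 3531008 on chromosome 5, and Atp5d spans 80138698 to 80145828 on chromosome 10.

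Other genes of purinergic signalling were taken as 7 lists of 44 genes. A site lay within 50 kb of 30 of them (68.2%, 95% interval 53.4 to 80.0), against 50.3% of protein-coding genes. The lists were chosen with earlier results known, some genes share sites, and gene lengths were not matched. Nothing is therefore read from this difference or from the counts per list below. Among the other genes with P2 receptor symbols, 5 of 7 had a site and none of the scores reached 10. This list goes by symbol, and P2ry10 and P2ry10b are not established nucleotide receptors. P2ry10, a receptor gene of lymphoid and myeloid cells on the X chromosome, had its highest site (9.77) 202 bases upstream of a start. The start window that holds this summit has no GAGGAAG. P2ry10b (6.98), P2rx2 (6.57) and P2ry4 (5.59) followed, and P2rx3 and P2rx6 had 0 sites. The P2ry10b site also lies within 50 kb of P2ry10 and is counted for both.

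Adenosine receptors, which sense the breakdown product of ATP, had a site in 3 of 4 cases, Adora1 (highest score 10.2), Adora2b (10.03) and Adora3 (5.60). Adora2a had 0. Of the enzymes that degrade extracellular nucleotides, 8 of 10 had a site. Entpd1, the gene of CD39, which removes phosphates from ATP and ADP, had 11 sites, of which 10 lay inside the gene, with scores from 1.82 to 16.4. That is more than the 7 of P2ry12 in a gene of 129237 bases, against 46715 for P2ry12. Entpd8 (16.2), Enpp1 (12.6) and Alpl (9.30) followed, and Enpp2 and Enpp3 had 0.

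Of the genes of nucleotide release, 2 of 5 had a site. Slc17a9, the vesicular nucleotide transporter, had 2 sites (highest 17.1) and the volume-regulated channel gene Lrrc8a had 1 (4.23). Panx1 and Panx2, which encode pannexins, had 0. Nucleoside transporters had a site in 3 of 5 cases. Slc29a1, which carries adenosine, had 5 sites, the highest (25.6) at 13.6 kb upstream of a start, and Slc28a2 (15.1) and Slc28a3 (11.96) had 1 and 2. Slc28a1 and Slc29a2 had 0.

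Among G protein and phospholipase C genes that act below P2Y receptors, 7 of 11 had a site. Gnaq, the Gq alpha subunit, had 7 sites (highest 13.8), Gna15 had 7 (10.3), Gna11 had 6 (10.3) and Plcb1 had 3 (10.4). Gna15 and Gna11 are neighbours and share sites. Gnai1 and Plcb2 had 0. The other Gi alpha genes, named after their values were seen, had 2 sites each. Both Gnai2 sites lay within 10 kb (highest 8.68), and the highest Gnai3 site (8.18) lay 72 bases upstream of its start. Of the receptors related to P2ry12, Gpr34, a lysophosphatidylserine receptor of microglia on the X chromosome, had a site of 35.1 located 5.75 kb beyond its lower end. That score exceeded the 18.5 of P2ry12. The 1 site within 50 kb of Gpr171 (9.62) is the P2ry14 site.

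**Figure D5:**
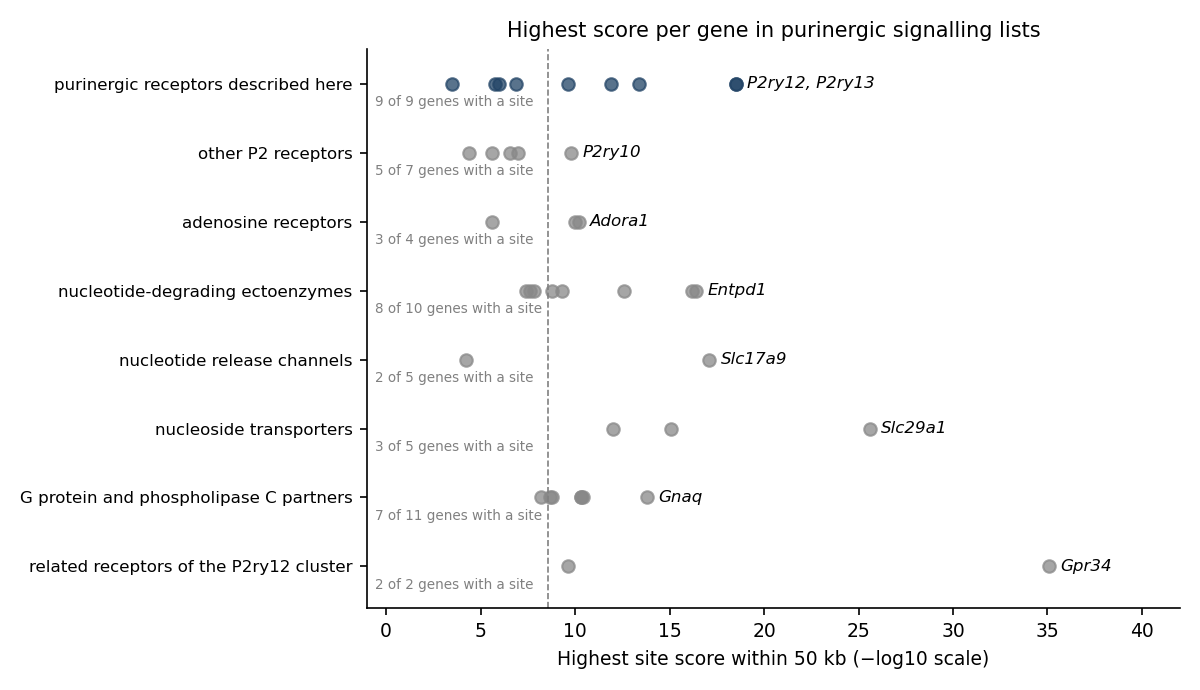
Highest site score within 50 kb (horizontal axis, −log10 scale) of each gene, by list (vertical axis), with the number of genes that had a site and the name of the gene with the highest score. The dashed line is the median of all listed sites (8.56). P2ry12 and P2ry13 lead the receptors described here at 18.5, the score of a shared site inside P2ry12 and 18.0 kb from P2ry13. Slc29a1 (25.6) and Gpr34 (35.1) lie further right.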

How the data were processed

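The authors deposited 1 list of MACS2 summits on mm10 for the 5 libraries, and CASAVA 1.8.2 was also used, per the submitters' processing notes. The deposited score of each summit is on a −log10 scale, but its kind (p-value or q-value), the aligner, the MACS2 version and settings, and any pooling of libraries were not given in the sources used here. Scores began at 1.32, close to 1.30, which corresponds to 0.05. No summit name occurs more than once, which does not show whether a peak region holds several summits. Read depth is unknown.

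From the list, summits inside RefSeq gene spans or within 50 kb were counted with Python 3.11.15 and pandas 2.3.3. Scores were ranked within the list, and letters were searched on both strands of RefSeq start windows (GRCm38.p6), of which 8 of 9 members had at least 1. The counting and the letter search were tested on simulated data. The receptors and lists were chosen with earlier results of these data known, and no test was run. GGAA was added to the planned letters after the sequences were seen. Genes named are the 9 receptors, and per list up to 4 genes by highest score and the first 2 with none. Genes nearer to a site than the receptor and 5 genes with as many sites as P2ry12 are also named. Gnai2 and Gnai3 were named outside this rule.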

Additional observations from a re-analysis of the deposited data

How the results depend on the processing

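The counts depend on the window and the score limit. With a 100 kb window in place of 50 kb, 27 instead of 17 sites were counted. With sites scoring at least 10, 8 sites at 4 members remained and their median score was 13.62, by construction. With each site given to the nearest protein-coding gene only, and a site inside both a receptor and Med12l given to both, 10 sites were left, and 80.0% instead of 47.1% of them lay inside a member, since sites outside the receptors but inside Med12l, or nearer to other genes, dropped out. The median score of these 10 sites was 7.22, below the 8.56 of all listed sites, where that of the 17 was 9.62. P2ry13 and P2rx4 then had 0 sites. With sites shared with Med12l left out too, a choice made after seeing the data, 6 sites at 5 members remained with a median score of 5.39, and P2ry12 and P2ry14 had 0 as well. The number of members with a site was 7 with the 10 kb window, 9 with the 100 kb window, 8 with scores of at least 5 and 7 with the nearest gene when shared sites count. No paired analysis was possible because the list holds no values per library, which also kept single libraries from being left out. The depth is unknown and the list sets PU.1 high against PU.1 low, so that a gene with 0 listed sites may still be bound by PU.1.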
